A study of Mus musculus with 10 samples.

Results

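The clustered protocadherins are a family of neuronal cell adhesion proteins encoded in 3 neighbouring gene clusters, alpha, beta and gamma. Rows of the footprint count table were taken as members when their mouse symbol started with Pcdha, Pcdhb or Pcdhg, which gave 58 of 22373 rows, with 14 in the alpha cluster, 22 in the beta cluster and 22 in the gamma cluster. The table of RefSeq genes places these symbols on mouse chromosome 18. Ribosome profiling (Ribo-seq) counts the mRNA fragments that ribosomes protect from nuclease, called footprints, so that a count depends on how much of an mRNA is present and on how many ribosomes it carries. Neocortex was dissected from wild-type CD-1 mice of both sexes at the embryonic stages E12.5, E14, E15.5 and E17, named for days of gestation, and on the day of birth (P0). Lysates were digested with RNase T1 and RNase A, and fragments were recovered from the 80S monosome fraction, with no drug, genotype or treatment separating the groups. Each stage had 2 libraries, and several brains were pooled for each, so replicates stand for pools rather than animals.

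In the alpha and gamma clusters, each isoform has its own large first exon, with its own promoter, and all isoforms of the cluster are spliced to the same short constant exons. Beta genes lack such constant exons. A neuron expresses a small set of isoforms, whose extracellular cadherin repeats bind only matching sets on other membranes, and this recognition lets neurites of one neuron avoid each other. The last isoforms of the alpha and gamma clusters (Pcdhac1, Pcdhac2, Pcdhgc3, Pcdhgc4 and Pcdhgc5, called C-type) are more widely expressed among neurons than the alternate isoforms that precede them.

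Members took a small share of all footprints, higher in all E15.5, E17 and P0 libraries than in those of E12.5 and E14. They took 0.0153% of 21378041 counts in replicate 1 at E12.5, the lowest share, and 0.0537% of 7544404 counts in replicate 1 at P0, the highest share. Library totals ran from 7544404 to 36129988 counts, and replicate 1 at P0 was the shallowest. Below, CPM (the usual count scaled to library size) is given on TMM-adjusted library sizes. Isoforms differ in length and the coding lengths were not used here, so levels are compared between stages and not between genes.

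The 3 clusters followed different courses. Summed CPM of the alpha cluster was 15.1 ± 2.16 (SD, n = 2, as for all sums) at E12.5 and 20.2 ± 0.733 at E14, then 43.3 ± 1.81 by E15.5, 78.3 ± 3.95 by E17 and 102.4 ± 7.03 on the day of birth. At each stage from E14 on, both alpha sums exceeded both sums of the stage before. The ratio of the P0 mean to the E12.5 mean was 6.77. In bulk tissue, more cells of a type and more footprints per cell cannot be told apart.

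Beta isoforms together had 7.51 ± 0.196 CPM at E12.5 and 8.19 ± 0.781 at E14, then 11.1 ± 0.310 by E15.5, 19.5 ± 0.527 by E17 and 19.1 ± 2.05 on the day of birth. Gamma isoforms together had 166.1 ± 10.8 CPM at E12.5 and 174.2 ± 11.2 at E14, then 208.0 ± 3.30 by E15.5, 308.1 ± 12.4 by E17 and 283.4 ± 41.5 on the day of birth. The beta and gamma sums at P0 overlapped those at E17, while both E17 sums lay above both E15.5 sums. The P0 to E12.5 ratio was 2.55 for beta and 1.71 for gamma.

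**Figure D1:**
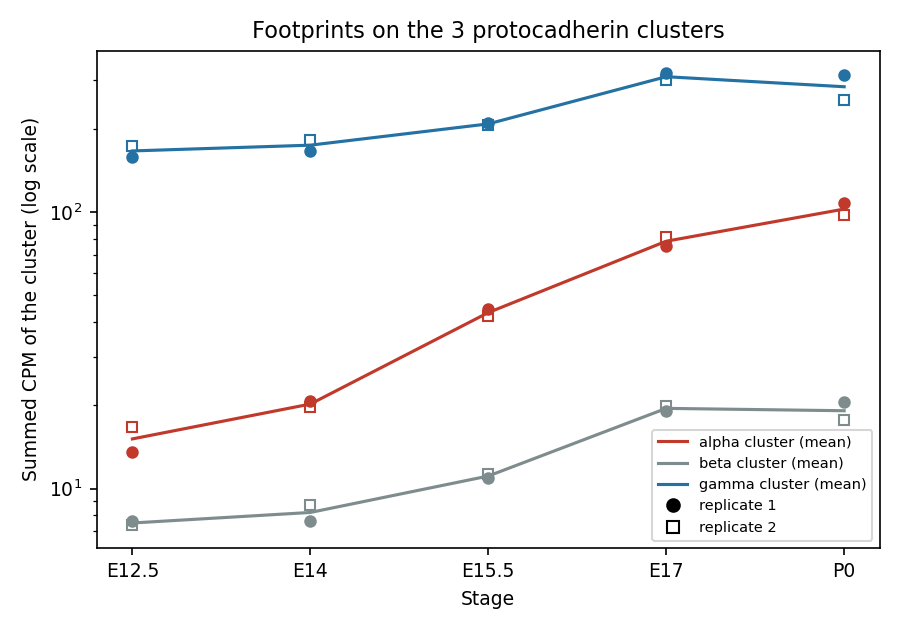
Summed CPM of the members of each cluster (log axis) at the 5 stages, with 1 point per library and lines through the means of 2 libraries. The alpha sum climbs from 15.1 to 102.4 CPM, while the beta and gamma sums climb to E17 and show overlapping libraries at E17 and P0.

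The ratio of alpha to gamma counts within a library does not depend on how libraries are scaled. It was 0.0857 and 0.0958 in the E12.5 libraries, 0.125 and 0.108 in those of E14, 0.212 and 0.204 in those of E15.5, 0.238 and 0.271 in those of E17, and 0.343 and 0.383 in those of P0. Both libraries of every stage lay above both libraries of the stage before. The alpha cluster held 7.99% ± 0.606 (SD, n = 2) of all member counts at E12.5 and 25.4% ± 1.43 at P0, and the gamma cluster held 88.0% ± 0.232 and 69.9% ± 1.51. For beta over gamma the ratio ranged from 0.0424 in replicate 2 at E12.5 to 0.0695 in replicate 2 at P0, and its E17 and P0 libraries overlapped.

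**Figure D2:**
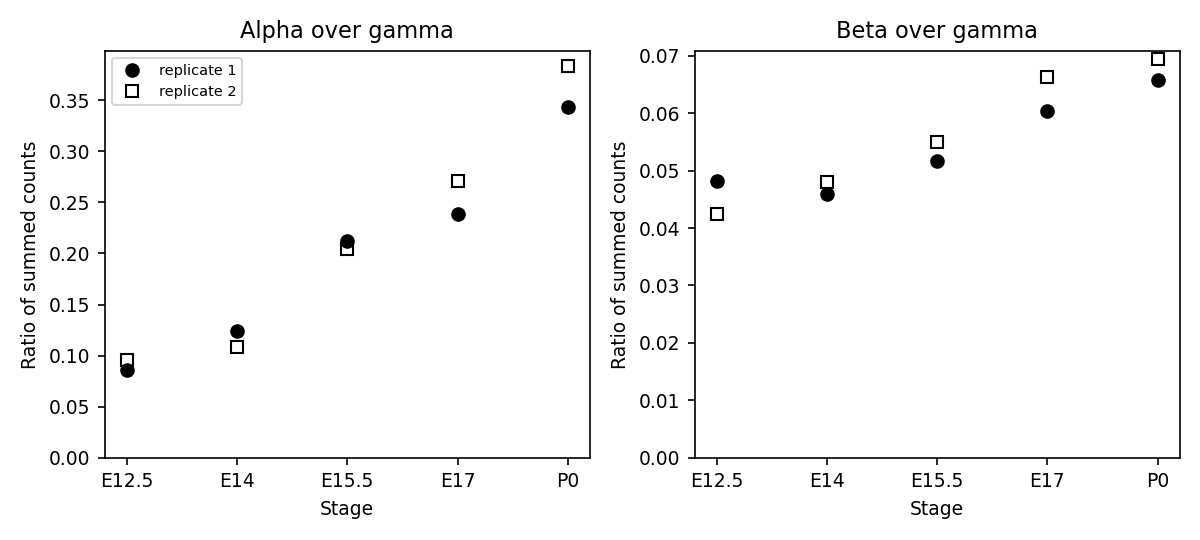
Ratio of summed alpha to summed gamma counts (left) and of summed beta to summed gamma counts (right) in each of the 10 libraries, on linear axes from 0. The alpha ratio rises from 0.0857 in replicate 1 at E12.5 to 0.383 in replicate 2 at P0, with no overlap between adjacent stages.

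Members were tested one by one between adjacent stages and between P0 and E12.5. Calls required an adjusted p below 0.05 (limma-voom, Benjamini-Hochberg adjustment over all 13484 genes tested) together with a log2 fold change of at least 0.32 in size. With at least 32 footprints in 1 or more stages, 53 members were tested, of which 14 were alpha, 18 beta and 21 gamma. The others were Pcdhb1, Pcdhb2, Pcdhb10, Pcdhb13 and Pcdhgb8. Pcdhgb8, which RefSeq lists as a transcribed pseudogene, had 0 counts in all 10 libraries, which allows up to 3 counts in each, or 0.0830 to 0.398 CPM of total counts.

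The minimum bears unequally on the clusters. All 21 gamma members tested and 11 of 14 alpha members reached it at E12.5, but only 1 beta member did, Pcdhb17, and 17 beta members and 3 alpha members passed only through later stages. Passing this way favours members that are higher later, so the beta counts for the whole span are given as a description. Pcdhb17 was singled out here after its values were seen, although it is also among the 3 beta members of highest mean CPM.

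Between E12.5 and E14 no member was called changed by limma-voom, beside 0.638% of all genes tested (0.497% higher), and 3 members, all of them alpha, had an unadjusted p under 0.05. Tests with edgeR and DESeq2 also called 0 members, with 2 and 0 at an unadjusted p under 0.05. The median log2 fold change was 0.37 over the alpha members tested, 0.14 over beta and 0.018 over gamma, and it was -0.0015 over all genes tested.

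Between E14 and E15.5 the alpha cluster rose as a whole. All 14 alpha members were called higher, along with 1 of 21 gamma members, Pcdhgc5, and 0 of 18 beta members, while 16.5% of all genes tested were called higher. No member was called lower, beside 19.6% of all genes. Of the beta members 1 had an unadjusted p under 0.05, and edgeR and DESeq2 called no beta member either. All alpha members had reached the minimum at E14, so that the filter did not require this difference. Only 4 of the 18 beta members had reached it at E14 and 7 at E15.5, so low counts limit what 0 calls can show. In 17 of the 18 both E15.5 libraries lay above both E14 libraries, beside 38.1% of all genes tested. Passing only through later stages favours such a rise, so this is given as a description. Log2 fold changes of the alpha members lay between 0.96 and 1.24, around a median of 1.09, beside medians of 0.46 for beta, 0.17 for gamma and -0.0086 for all genes tested.

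The 12 alternate alpha rows were called higher in this step in all 20 alternative analyses. Pcdhac1 was lost in 4 of them and Pcdhac2 in 1, and Pcdhgc5 in 9. With libraries scaled to total counts alone, which moved the median of all genes to 0.29, the cluster medians were 1.39 for alpha, 0.76 for beta and 0.46 for gamma, and 30 members were called higher.

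Between E15.5 and E17 all alpha members and most gamma members rose. Members called higher numbered 37 of 53, beside 9.04% of all genes tested (5.61% higher and 3.43% lower), and none was called lower. They were all 14 alpha members, 19 of 21 gamma members and 4 of 18 beta members. Only 7 of these 18 beta members had reached the minimum at E15.5 while all 18 reached it at E17, so the beta count and median of this step are given as a description. The 4 were Pcdhb7, Pcdhb9, Pcdhb16 and Pcdhb17, of which Pcdhb7 lies outside the naming rule and was named after its values were seen. Gamma members not called were Pcdhga4 (0.59 ± 0.15, SE, adjusted p = 0.0514 on the log2 scale) and Pcdhgc3, and Pcdhga4 too was named after its values were seen. Medians were 0.86 for alpha, 0.80 for beta and 0.61 for gamma, against -4.6e-05 for all genes tested.

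These calls rested on every library of both stages. Leaving out either E15.5 library or either E17 library left 0 members called by limma-voom, with 37 to 42 members at an unadjusted p under 0.05, and few genes of any kind were called then (0 to 18). Without E12.5 replicate 1 or 2 there were 20 and 21 calls, and without either E14 library 24. DESeq2 called 11 members and edgeR 30.

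Between E17 and P0, 2 members were called higher, Pcdha1 and Pcdha5, beside 9.46% of all genes tested, and no member was called lower, beside 11.1%. Pcdha5 lies outside the naming rule and was named after its values were seen. The median log2 fold change was 0.35 for alpha, with all 14 members above 0. It was -0.072 for beta, which turned to 0.027 with libraries scaled to total counts alone, and -0.14 for gamma.

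Neither of the 2 calls held with edgeR or DESeq2. The P0 libraries differed in depth and in gamma counts, and leaving out the shallow replicate 1 gave 2 members higher (Pcdha1 and Pcdha5) and 5 lower (Pcdhb17, Pcdhga7, Pcdhgb6, Pcdhgb7 and Pcdhgc3), whereas leaving out replicate 2 gave 5 higher, all of them alpha, and 0 lower. Leaving out any library of the other 4 stages left 0 members called.

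Over the whole span, from E12.5 to P0, 50 of 53 members were called higher and none lower, beside 62.1% of all genes tested (30.1% higher). The 3 not called were Pcdhb6, Pcdhb18 and Pcdhb21. Log2 fold changes ran from 2.19 to 2.95 in the alpha cluster, from 0.62 to 2.03 in the beta cluster and from 0.44 to 1.03 in the gamma cluster, over the members that passed the minimum. Over the 5 stages together, the F test called 49 of 53 members, all of the alpha and gamma members tested and 14 beta members, beside 63.8% of all genes tested. From E12.5 to P0, a fit of these 2 stages alone called 28 members, and without a minimum on counts 57 members could be tested and 52 were called higher.

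**Figure D3:**
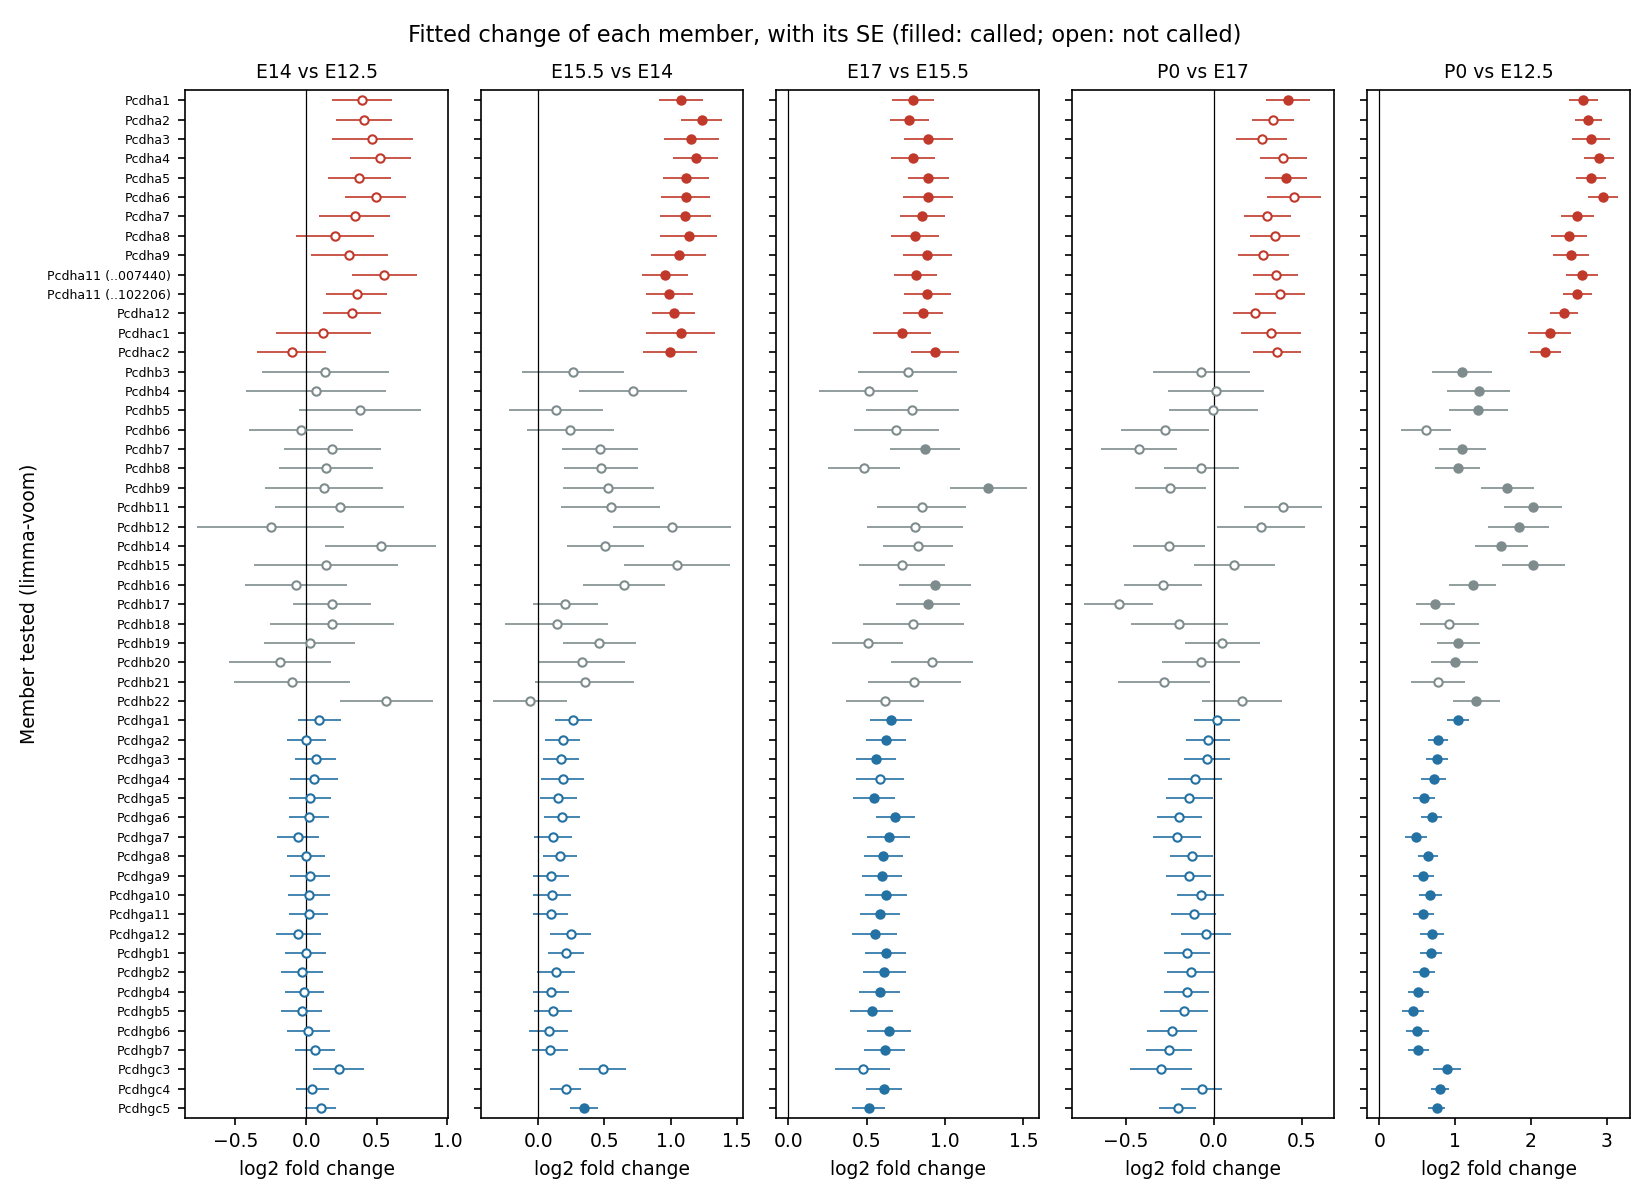
Fitted log2 fold change of each of the 53 members tested (rows, in cluster order with alpha in red, beta in grey and gamma in blue) in 5 comparisons, with bars of 1 SE and filled symbols for members called changed. Alpha members stand near 1.09 in the step to E15.5, where gamma members stand near 0.17, and between 2.19 and 2.95 from E12.5 to P0.

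Among alternate alpha isoforms, Pcdha6 had 2.86 and 2.73 in the E12.5 libraries, 4.68 and 3.39 in those of E14, 8.95 and 8.07 in those of E15.5, 16.0 and 15.6 in those of E17 and 24.8 and 19.7 in those of P0 (CPM in replicates 1 and 2, in that order here and for the genes below). Each pair of libraries lay above the pair before. Its log2 fold change from E12.5 to P0, the largest of any member, was 2.95 ± 0.20 (SE; adjusted p = 5.6e-06), and that from E14 to E15.5 was 1.11 ± 0.18 (SE; adjusted p = 0.00223). Pcdha6 held between 16.4% and 23.1% of alpha counts in every library.

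Pcdha4 rose along the same course, with 1.21 and 1.72 in the E12.5 libraries, 2.12 and 2.19 in those of E14, 5.21 and 4.64 in those of E15.5, 8.29 and 8.90 in those of E17 and 12.3 and 10.7 in those of P0. No stages overlapped, and its log2 fold change over the span was 2.90 ± 0.20 (SE; adjusted p = 6.0e-06). Pcdha2 showed the largest alpha rise from E14 to E15.5, from 1.68 and 1.68 to 3.92 and 4.05 CPM, a log2 fold change of 1.24 ± 0.16 (SE; adjusted p = 6.3e-04). The stages were far apart relative to the spread between libraries. As a share of alpha counts Pcdha2 ranged from 7.69% to 9.66%.

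Pcdha1, the first isoform of the cluster, had 0.935 and 1.31 in the E12.5 libraries, 1.55 and 1.49 in those of E14, 3.25 and 3.17 in those of E15.5, 5.37 and 5.86 in those of E17 and 7.72 and 7.37 in those of P0. Its P0 libraries both exceeded its E17 libraries, and this last step gave a log2 fold change of 0.42 ± 0.13 (SE; adjusted p = 0.0492), just under the threshold. Pcdha5 gave 0.41 ± 0.12 (SE; adjusted p = 0.0456) for the same step, from 4.32 and 4.73 CPM at E17 to 6.20 and 5.89 at P0. Pcdha6, with the largest estimate of this step, was not called (0.46 ± 0.15, SE, adjusted p = 0.0703).

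The symbol Pcdha11 was carried by 2 rows, ENSMUSG00000007440 and ENSMUSG00000102206. No row carried the symbol Pcdha10, and whether 1 of the 2 rows holds that isoform was not checked. The second of these rows was among the 3 alpha rows of highest mean CPM, with 1.49 and 1.83 in the E12.5 libraries, 2.30 and 2.06 in those of E14, 4.55 and 4.05 in those of E15.5, 7.62 and 8.41 in those of E17 and 11.9 and 9.62 in those of P0. It rose over the span by a log2 fold change of 2.61 ± 0.19 (SE; adjusted p = 1.0e-05), with no overlap between E12.5 and P0.

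Both C-type isoforms of the alpha cluster rose from E14 to E15.5 and again to E17. Pcdhac1 had 0.440 and 0.636 in the E12.5 libraries, 0.530 and 0.666 in those of E14, 1.33 and 1.27 in those of E15.5, 2.0 and 2.37 in those of E17 and 2.39 and 2.82 in those of P0. Its E12.5 and E14 libraries overlapped, and the step to E15.5 gave a log2 fold change of 1.08 ± 0.26 (SE; adjusted p = 0.0131). With 8 and 17 footprints at E12.5 and 12 and 21 at E14, its early estimates are coarse.

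Pcdhac2, which is known for its part in the spacing of serotonergic axons, had 0.825 and 0.898 in the E12.5 libraries, 0.795 and 0.824 in those of E14, 1.57 and 1.73 in those of E15.5, 2.95 and 3.38 in those of E17 and 4.24 and 3.96 in those of P0. Both E14 libraries lay below both E12.5 libraries, a difference that was not called (-0.10 ± 0.24, SE, adjusted p = 0.884). Its rise from E15.5 to E17 was the largest of the alpha cluster, with 0.94 ± 0.15 (SE; adjusted p = 0.0140). Over the span Pcdhac2 and Pcdhac1 had the smallest log2 fold changes of the cluster, at 2.19 ± 0.20 and 2.25 ± 0.28 (SE), which were not tested against those of the alternate isoforms.

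The C-type isoforms had the most footprints of the gamma cluster, with no account taken of length. Pcdhgc3, which is known to dampen Wnt signalling through Axin1 and to promote dendrite branching, had 23.4 and 28.0 in the E12.5 libraries, 27.3 and 33.1 in those of E14, 40.9 and 43.7 in those of E15.5, 58.2 and 59.2 in those of E17 and 58.0 and 40.7 in those of P0. Its P0 libraries stood far apart, replicate 1 just under both E17 libraries and replicate 2 near the E15.5 libraries. The span gave a log2 fold change of 0.89 ± 0.18 (SE; adjusted p = 0.00281), while neither the step to E15.5 (0.49 ± 0.18, SE, adjusted p = 0.0627) nor the step to E17 (0.47 ± 0.17, SE, adjusted p = 0.131) was called.

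Pcdhgc4, the isoform known to be needed for survival of cortical interneurons, had 29.5 and 31.5 in the E12.5 libraries, 30.4 and 32.4 in those of E14, 36.9 and 35.8 in those of E15.5, 58.1 and 53.1 in those of E17 and 58.7 and 48.7 in those of P0. Libraries of E15.5 and E17 did not overlap, and that step gave 0.61 ± 0.11 (SE; adjusted p = 0.0191) on the log2 scale. Pcdhgc5, known to bind GABA-A receptors, had 23.7 and 27.0 in the E12.5 libraries, 26.8 and 27.7 in those of E14, 35.9 and 33.4 in those of E15.5, 51.6 and 47.3 in those of E17 and 43.6 and 42.2 in those of P0. It was the sole gamma member called in the step to E15.5, with 0.35 ± 0.11 (SE; adjusted p = 0.0329), and it rose again to E17, with 0.51 ± 0.10 (SE; adjusted p = 0.0238). Its P0 libraries both lay below its E17 libraries, but this difference was not called (-0.21 ± 0.10, SE, adjusted p = 0.193).

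The ratio of Pcdhgc3 to Pcdhgc4 counts, also free of library scaling, was 0.793 and 0.891 in the E12.5 libraries, 0.898 and 1.02 in those of E14, 1.11 and 1.22 in those of E15.5, 1.00 and 1.12 in those of E17, and 0.987 and 0.835 in those of P0. It was above 1 in both E15.5 libraries and below 1 in both E12.5 and both P0 libraries, and this course was not tested.

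**Figure D4:**
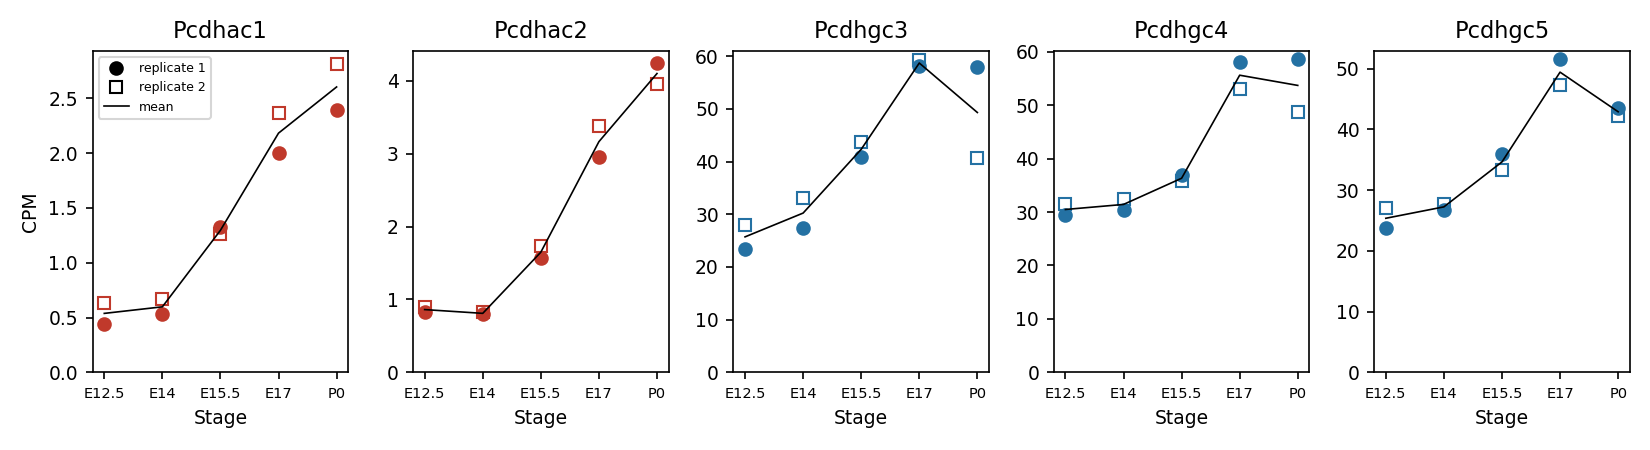
CPM of the 5 C-type isoforms at the 5 stages, with 1 point per library and a line through the means, on linear axes from 0 that differ between panels. Pcdhac1 and Pcdhac2 are near level from E12.5 to E14 and climb from E15.5, and the P0 libraries of Pcdhgc3 stand apart at 58.0 and 40.7 CPM.

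Alternate gamma isoforms had similar fold changes. All 18 with counts had log2 fold changes between 0.53 and 0.68 in the step from E15.5 to E17, in which 17 were called higher, and between 0.44 and 1.03 over the span. Pcdhga1, the first isoform of the cluster, had the largest span, from 4.35 and 4.67 CPM at E12.5 to 10.7 and 8.59 at P0, a log2 fold change of 1.03 ± 0.14 (SE; adjusted p = 3.7e-04). Pcdhga6 showed the largest gamma rise from E15.5 to E17, from 5.06 and 4.86 to 8.42 and 7.55 CPM, or 0.68 ± 0.13 (SE; adjusted p = 0.0190). In neither gene did the libraries of the stages compared overlap. Of all genes tested, 36.4% had both P0 libraries above both of E12.5, and 34.0% both E17 libraries above both of E15.5.

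Beta isoforms had low counts, which makes single genes imprecise. Pcdhb17 had 14 and 20 in the E12.5 libraries, 18 and 29 in those of E14, 32 and 25 in those of E15.5, 56 and 53 in those of E17 and 16 and 50 in those of P0, as footprint counts. In CPM its E15.5 libraries (0.964 and 1.06) lay below its E17 libraries (1.78 and 1.99), a log2 fold change of 0.89 ± 0.21 (SE; adjusted p = 0.0355). Its P0 libraries, at 1.74 and 1.19, were both below those of E17, which was not called (-0.54 ± 0.20, SE, adjusted p = 0.0878).

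Pcdhb9 showed the largest beta rise from E15.5 to E17, from 0.482 and 0.549 to 1.27 and 1.24 CPM, or 1.28 ± 0.25 (SE; adjusted p = 0.0208). With 16 and 13 footprints at E15.5 it passed the minimum only through E17 and P0, which favours a rise in this step. Pcdhb16 rose in the same step from 0.783 and 1.01 to 1.68 and 1.69 CPM, or 0.94 ± 0.23 (SE; adjusted p = 0.0430). Pcdhb7 gave 0.87 ± 0.22 (SE; adjusted p = 0.0488), close to the threshold. All 3 had their libraries of the 2 stages fully apart. So did all 53 members tested, beside 34.0% of all genes tested with both E17 libraries above both E15.5 libraries.

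Pcdhb15 had the largest beta rise over the span, with 3 and 5 in the E12.5 libraries, 5 and 6 in those of E14, 16 and 9 in those of E15.5, 25 and 18 in those of E17 and 8 and 33 in those of P0, as footprint counts, and a log2 fold change of 2.03 ± 0.42 (SE; adjusted p = 0.00296). It too passed the minimum only through E17 and P0, and with so few counts at E12.5 this size is uncertain, although no library of P0 overlapped with E12.5 in CPM. Pcdhb19 rose over the span from 0.715 and 0.598 to 1.63 and 1.29 CPM, or 1.04 ± 0.28 (SE; adjusted p = 0.0116), and was called in no single step.

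Counts were compared between isoforms within each library, since footprints on the constant exons fit every isoform of a cluster, and reads that match several places were kept at alignment, up to a large number of places. How such reads were divided in this table is not stated, so counts of alpha and gamma isoforms may hold reads in common, and calls for isoforms of one cluster are not independent of each other. The cluster sums, shares and ratios above may then hold the same read more than once. The share of shared reads in each count was not tested.

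Near-equal pairs were defined as genes whose counts differed by at most 5% of the larger count in every library, with a mean of at least 20 counts in both. Of 780 pairs of members with such counts 2 met this (0.256%), beside 51 of 75528195 pairs of all genes (6.75e-05%). Pcdhga10 had 79 and 121 in the E12.5 libraries, 95 and 151 in those of E14, 166 and 111 in those of E15.5, 243 and 193 in those of E17 and 75 and 277 in those of P0, as footprint counts. Pcdhgb2 had 79 and 126 in the E12.5 libraries, 95 and 148 in those of E14, 165 and 114 in those of E15.5, 245 and 192 in those of E17 and 73 and 266 in those of P0. The largest difference of this pair was 3.97%, and 2 libraries gave identical counts.

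The second pair was Pcdhgb4 and Pcdhgb5. Pcdhgb4 had 83 and 131 in the E12.5 libraries, 103 and 153 in those of E14, 172 and 116 in those of E15.5, 247 and 194 in those of E17 and 71 and 267 in those of P0. Pcdhgb5 had 87 and 137 in the E12.5 libraries, 104 and 161 in those of E14, 178 and 122 in those of E15.5, 250 and 194 in those of E17 and 72 and 263 in those of P0. Their largest difference was 4.97%. Both pairs join alternate gamma isoforms whose first exons differ. With the limit at 10% the number grew to 36 pairs among 16 gamma members, 17.1% of the 210 gamma pairs, with 0 alpha and 0 beta pairs. Of all gene pairs, 434 of 75528195 met this limit (5.75e-04%). A limit in percent is harder to meet at low counts. The 0 alpha and 0 beta pairs therefore cannot show that near-equal counts are particular to gamma.

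A measure scaled to counting error, added after the data were seen, was the squared difference of the counts over their sum, averaged over the 10 libraries, for which independent Poisson counts of equal mean give 1. Of alternate gamma pairs 60 of 153 (39.2%) lay under 0.5, involving 17 of 18 isoforms, beside 6 of 66 alternate alpha pairs (9.09%), 3 of 10 beta pairs and 0.00407% of all gene pairs. A pair of independent genes can fall under this limit by having equal means, and the low beta counts make that easier. Pcdha7 and Pcdha9 were the closest pair, at 0.0318. Pcdha7 had 12 and 21 in the E12.5 libraries, 21 and 30 in those of E14, 69 and 48 in those of E15.5, 110 and 107 in those of E17 and 45 and 188 in those of P0, and Pcdha9 had 11 and 24 in the E12.5 libraries, 21 and 31 in those of E14, 67 and 48 in those of E15.5, 111 and 107 in those of E17 and 45 and 185 in those of P0. They never differed by more than 3 counts and were identical in 4 libraries. Both were named after their values were seen.

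**Figure D5:**
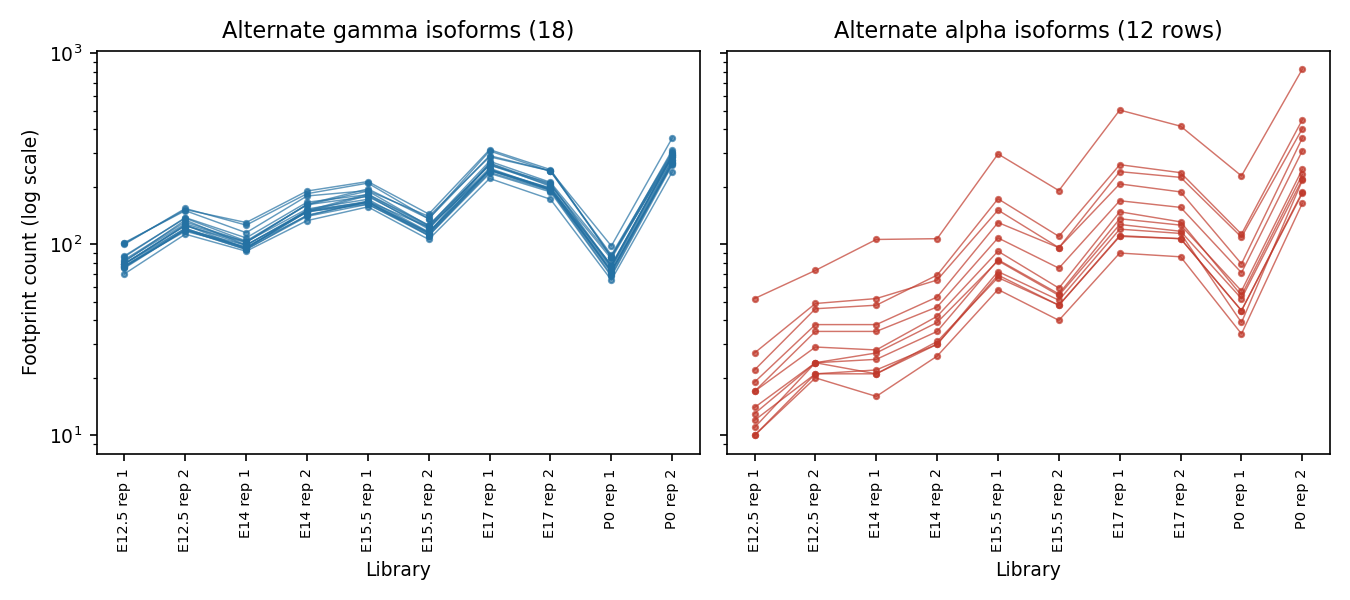
Footprint counts (log axis) of the 18 alternate gamma isoforms with counts (left) and the 12 alternate alpha rows (right) in the 10 libraries, with 1 line per isoform. Gamma lines lie close together with counts of 65 to 360, and alpha lines spread over counts of 10 to 826, with Pcdha6 at 16.4% to 23.1% of alpha counts.

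Counts of alternate gamma isoforms varied around their mean by a coefficient of variation of 8.91% to 11.2% within a library, and those of alternate alpha rows by 47.1% to 70.0%. These describe counts in the table, with no account of length, and not levels. Shares of alpha counts moved unequally over the libraries, from 6.88% to 7.87% for Pcdha1 and from 16.4% to 23.1% for Pcdha6, and between 3.52% and 6.07% for Pcdhac2, which was highest at E12.5. A row outside the members by its symbol, Gm42416, had 71 to 352 counts, and differed from Pcdhga1 by at most 12.3% in any library. This row was noticed after its values were seen.

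Regulators of the clusters were followed in a list of 18 chromatin and cohesin genes, all tested. CTCF and cohesin bring promoters of the clusters to distant enhancers, and DNA methylation silences promoters of alternate isoforms. None was called between E12.5 and E14 (limma-voom), beside 0.638% of all genes tested. From E14 to E15.5, 2 of the 18 were lower, beside 19.6% of all genes. They were Dnmt3a (-0.81 ± 0.12, SE, on the log2 scale, adjusted p = 0.00156) and Dnmt3b (-1.88 ± 0.23, adjusted p = 5.8e-04), both de novo DNA methyltransferases. Dnmt1, the maintenance methyltransferase, was lower from E15.5 to E17 (-0.50 ± 0.12, SE, adjusted p = 0.0434), beside 3.43% of all genes. The cohesin subunit Smc1a was lower from E17 to P0 (-0.64 ± 0.18, SE, adjusted p = 0.0375), beside 11.1% of all genes. From E12.5 to P0, 11 of the 18 were lower, where 4313 of 13484 genes were, and 2 were higher, beside 30.1% of all genes, with a median of -0.76. Dnmt3b showed the largest fall, from a mean of 8.43 to 1.65 CPM, and Wiz the largest rise, from 33.9 to 56.9 CPM.

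Binding partners and effectors of the protocadherins formed a list of 20 genes, of which 19 were tested. None was called between E12.5 and E14, while 10 were higher and 1 lower from E14 to E15.5. All 14 alpha members were called higher in that step and again from E15.5 to E17, where 2 genes of this list were higher. Ptk2b, a focal adhesion kinase family member that protocadherin tails inhibit, had the largest rise, from a mean of 0.557 to 4.21 CPM (2.87 ± 0.30, SE, on the log2 scale, adjusted p = 2.8e-04). Marcks, an actin-linked effector, was the gene called lower (-0.59 ± 0.19, SE, adjusted p = 0.0400). Ptk2b and Nlgn1, a synaptic adhesion protein, were higher from E15.5 to E17, and Ptk2b was higher and Nlgn1 lower from E17 to P0. From E12.5 to P0, 10 were higher and 2 lower, with Ptk2b rising most (6.77 ± 0.39, SE, adjusted p = 2.8e-06) and Adam10, a protease that cleaves protocadherins, falling most (-1.17 ± 0.21, SE, adjusted p = 0.00138). Of all genes tested, 16.5% were called higher and 19.6% lower in the step to E15.5, and 5.61% higher in the step to E17. From E17 to P0, 9.46% were called higher and 11.1% lower. Over the whole span 30.1% were called higher, and 4313 of 13484 genes lower.

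The makeup of the tissue moved with stage as well. Summed CPM of 10 markers of cortical projection neurons was 2346 to 2371 at E12.5, 3156 to 3233 at E14, 6538 to 6769 at E15.5, 6664 to 6954 at E17 and 7828 to 8677 at P0. Of the 10, 7 were called higher from E14 to E15.5, beside 16.5% of all genes tested. Tubb3, Dcx, Map2 and Stmn2 had the largest means in this sum, 736.6, 461.3, 602.4 and 247.2 CPM at E12.5 and 3141, 1368, 1659 and 1495 at P0. Tbr1, Bcl11b and Fezf2 had 87.8, 42.4 and 20.9 CPM at E12.5 and 88.4, 50.6 and 16.7 at P0. Of 10 markers of radial glia and intermediate progenitors, 9 were lower from E14 to E15.5, beside 19.6% of all genes tested. Another 1, Fabp7, was higher, and their sum was 2210 to 2284 CPM at E14 and 2158 to 2317 at E15.5. Markers of the ganglionic eminence and interneurons were 12 genes, with Lhx8 and Gsx2 at 0 at E12.5 and Lhx8 and Isl1 at 0 at P0. They summed to 39.0 to 45.1 CPM at E12.5, 57.5 to 69.6 at E14, 147.3 to 153.4 at E15.5 and 198.5 to 222.4 at P0. Of the 10 tested, 6 were called higher from E14 to E15.5, beside 16.5% of all genes. Markers of astrocytes and other glia were 12 genes, with S100b at 0 at E12.5. Their sum was 88.1 to 90.5 CPM at E12.5, 71.9 to 79.1 at E14 and 58.0 to 58.1 at E15.5. It was 106.4 to 117.7 at E17 and 157.5 to 203.9 at P0. Of the 11 tested, 2 were called higher and 2 lower from E14 to E15.5, beside 16.5% and 19.6% of all genes.

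Markers of tissue beside the neocortex were lower at E15.5 than at E14. All 10 meningeal and all 8 tested choroid plexus genes were called lower, beside 19.6% of all genes tested. All 14 alpha members were called higher in this step and again from E15.5 to E17, beside 16.5% and 5.61% of all genes tested. Meningeal fibroblast markers (10 genes) summed to 83.0 to 93.0 CPM at E14 and 7.68 to 7.81 at E15.5, and choroid plexus markers (10 genes, Trpv4 at 0 at E15.5) to 1168 to 1176 and 12.4 to 15.2. Red blood cell markers (11 of 12 in the table) summed to 10042 to 11056 CPM at E14, 6906 to 7422 at E15.5 and 1439 to 1862 at P0. The neocortex markers Emx1, Emx2 and Lhx2 had footprints at all stages. Of 10 endothelial and microglial markers, 8 were lower from E14 to E15.5, beside the same 19.6% of all genes. The part of these shifts in the protocadherin results was not tested.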

How the data were processed

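The authors deposited whole-number footprint counts per gene in 10 Ribo-seq libraries. They describe adapter trimming, collapse of duplicate sequences, removal of tRNA, rRNA and snoRNA reads with Bowtie 2, and alignment to GENCODE M12 coding sequences and genome with STAR, keeping multi-mapping reads. The submitters' processing notes name STAR 2.7.0, and the methods give another version. The methods name DeepShape-prime and tximport for gene-level counts. Whether this table comes from them is not stated, nor is a genome build for it.

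Gene symbols were matched for 22274 of 22373 identifiers. Counts were analysed in R 4.3.3 with limma-voom (limma 3.58.1) and TMM factors (edgeR 4.0.16), with 1 coefficient per stage over all 10 libraries. The study's methods also use voom, on length-corrected counts, and state no TMM factors. A gene was kept where the libraries of 1 stage or more together held 32 footprints (13484 genes), a minimum the study's methods set for coding sequences. Tests were two-sided and Benjamini-Hochberg adjusted, with calls at an adjusted p below 0.05 and at least 0.32 in log2 fold change. The F test had no fold threshold. Alternatives were other scalings, filters, edgeR quasi-likelihood tests, DESeq2 1.42.0, sample weights, 2-stage fits, a replicate block and leaving out each library. Scripts were tested on simulated counts. Intervals for 0 counts cover counting error only.

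Members and lists were chosen with earlier results of these data known. Named were C-type isoforms, the 3 members per cluster of highest mean CPM, the largest rise and fall called per cluster and comparison, members of near-equal pairs, members under the minimum, and the largest called changes of each context list. Ranking by footprints per coding length was not done here. A further neocortex marker is not reported here.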

Additional observations from a re-analysis of the deposited data

How the results depend on the processing

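No member was called between E12.5 and E14 under any alternative. From E14 to E15.5 the count of 15 became 30 with total counts alone and 12 to 17 without single libraries. From E15.5 to E17 the count of 37 became 24 with no filter and 11 with DESeq2, and 0 to 43 without single libraries, where 0 came from leaving out either library of E15.5 or of E17, 20 and 21 from leaving out E12.5 replicates 1 and 2, and 24 from leaving out either E14 library. From E17 to P0 the count of 2 became 7 with total counts alone, 1 with a minimum of 10 counts in 2 libraries, 0 with total counts outside histone genes, no filter, edgeR, DESeq2, sample weights or a fit of the 2 stages, and 0 to 7 without single libraries, with 7 without P0 replicate 1 and 5 without P0 replicate 2. From E12.5 to P0 the count of 50 became 28 in a fit of the 2 stages alone and 36 to 49 without single libraries. The F test count of 49 was 41 to 52 without single libraries and 53 with total counts alone. With total counts alone, which moved the median of all genes by 0.51, the log2 ratio of P0 to E12.5 sums was 3.29 for alpha (2.76 with TMM), 1.88 for beta (1.35) and 1.30 for gamma (0.77). Without single libraries these ratios were 2.62 to 2.91, 1.23 to 1.45 and 0.61 to 0.91. Near-equal pairs numbered 36 at a limit of 10%. No named member reversed in a comparison in which it was called. Among all 53 members, total counts alone moved the number with a log2 fold change above 0 from 40 to 48 between E12.5 and E14 and from 21 to 30 between E17 and P0. The causes were not tested.

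Correlations of deviations between same-numbered libraries ran from -0.65 (E12.5 with P0) to 0.28 over 10 pairs of stages, with no common sign. This check cannot exclude a batch shared between stages under other replicate numbers. With the replicate number as a block the counts were 0, 14, 25, 0 and 47 for the 5 comparisons in the order above, and 45 for the F test. With 2 pools per stage, and 7544404 counts in the shallowest library, low beta counts limit what can be called.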
